A study of Mus musculus with 9 samples.

Results

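High glucose alone was set against both of the other groups of the experiment, to find the genes at which it stood apart from each of them in the same direction. The cells were RAW264.7, an established macrophage-like line of mouse origin, and their polyadenylated RNA was sequenced in 9 libraries, 3 in each of 3 groups. NC was the control, for which the labels give neither a glucose concentration nor a time. HG was kept at 35 mmol/l glucose over 6 h, and HG-SIG had sitagliptin phosphate added to the same 35 mmol/l of glucose, also over 6 h. Sitagliptin is an inhibitor of dipeptidyl peptidase 4 used against type 2 diabetes, and its dose is not given in the sources used here. The design has no osmotic control and no sitagliptin at control glucose. The labels do not say whether replicates came from separate cultures, so the spread behind each p-value may be technical. A gene was a member when the mean of HG differed from the average of the NC and HG-SIG means at an adjusted p under 0.05 in edgeR's quasi-likelihood test, and when all 3 HG libraries lay above, or all below, the other 6. Of 20627 features, 13311 had enough counts to be tested, and 1784 were members, 1019 higher in HG and 765 lower. Because measured values chose these genes, their values in this contrast describe the choice and are not a test of it.

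Several systems that recur among the members are well understood in macrophages. Cells facing a hypertonic medium import or make small organic osmolytes, such as myo-inositol, betaine and sorbitol, through genes driven by the transcription factor NFAT5. Sterol and fatty acid synthesis genes are switched on together by the SREBP factors when membrane sterol is low. The factor ATF4 raises amino acid synthesis and transport genes in the integrated stress response, which shortage of amino acids or unfolded protein sets off.

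The libraries held 23285821 to 31571578 counts. On log2 CPM (the count as a share of its library's scaled total) the groups lay in the order NC, HG, HG-SIG along the first principal component (53.4% of variance), and HG was apart from both along the second (15.9%). HG replicate 3 stood apart from HG replicates 1 and 2 on the third component, which held 7.37%. The scaling factors computed by TMM were 0.948 to 0.954 in NC, 0.961 to 0.977 in HG and 1.08 to 1.09 in HG-SIG. The line's identity was checked on 10 macrophage markers, whose summed level, before TMM scaling, was 10547 to 10981 CPM in NC, 9761 to 10375 CPM in HG and 5642 to 5755 CPM in HG-SIG. A single marker held up to 185756 counts in a library, so the sum is weighted to the most abundant and does not give the change of each. Of the 10 markers 9 were tested and 2 were members, Csf1r higher and Fcgr3 lower in HG. Of the markers of lymphocytes, neutrophils, fibroblasts and epithelium 0 had enough counts to be tested, and no marker of these types exceeded 8 counts in any library. Of 5 dendritic cell markers 1 was tested, with up to 61 counts in a library, and their summed level was 0.862 to 1.24 CPM in NC, 1.06 to 1.35 CPM in HG and 1.89 to 2.35 CPM in HG-SIG. None of them was a member.

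The members were spread over many small differences. The test called 4582 genes, 34.4% of those tested, with 2424 (18.2% of genes tested) higher and 2158 (16.2%) lower in HG. The HG libraries did not overlap the other 6 at 1940 genes (14.6%), being above them at 8.23% of genes tested and below them at 6.34%. With library totals alone in place of TMM 1476 genes were called higher and 3591 lower, and members were 618 higher and 999 lower. Both conditions together, with TMM, gave the 1784 members, 13.4% of genes tested, of which 7.66% of genes tested were higher and 5.75% lower. Both pairwise comparisons were also called at 1182 members, 711 higher and 471 lower. HG against NC was called at 29.5% of all genes tested and HG against HG-SIG at 52.5%, and these comparisons share the HG libraries. The smaller of a member's separations from NC and from HG-SIG had a median of 0.19 on the log2 scale for higher members and 0.20 for lower ones. It exceeded 1, a doubling or halving against both groups, at 54 members and 0.5 at 224. At 931 members (52.2%) it was under 0.2. Just inside the rule lay Troap, at 46.4, 48.7 and 51.6 CPM in HG beside a highest value of 46.4 CPM elsewhere, and Pigm. Mboat7 and Trak1, called in the contrast, lay just outside through a slight overlap of libraries.

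**Figure D1:**
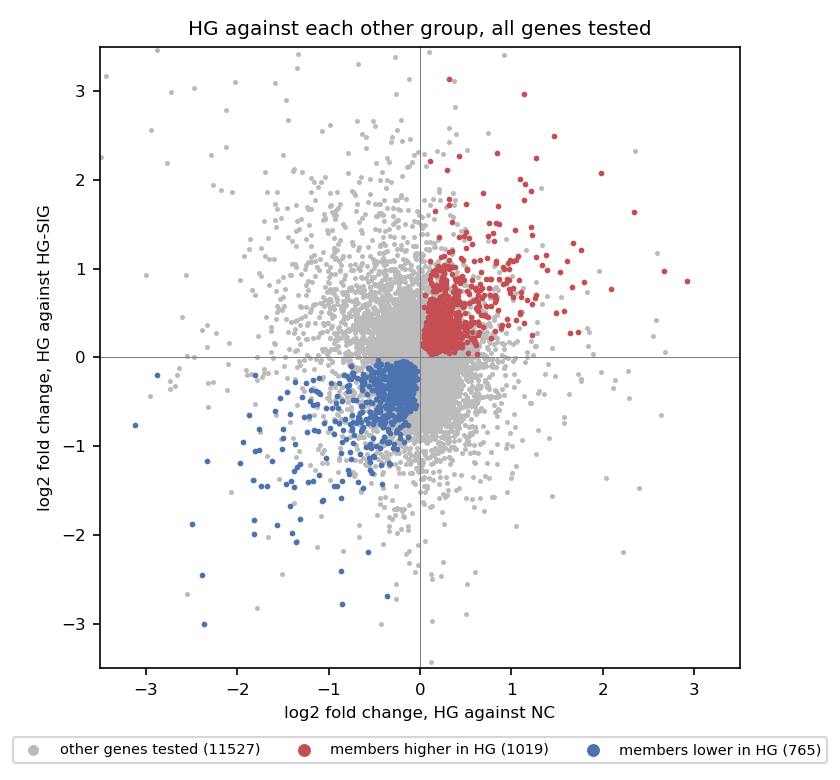
Each point is 1 of the genes tested, placed by its log2 fold change of HG against NC (horizontal) and of HG against HG-SIG (vertical), from 1 model whose comparisons share the HG libraries. The 1019 members higher in HG (red) lie at the upper right and the 765 lower (blue) in the lower left by the rule that chose them, and 27 genes lie outside the plotted range of -3.5 to 3.5.

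Among the 12 higher members with the widest separation, HG-SIG against NC was not called at 7 and was called at 5. Trp53i11 (ENSMUSG00000068735, chromosome 2, 93187548 to 93201759 in GRCm38, the assembly of mm10), a gene named for its induction by p53, had 5.61, 6.27 and 5.42 CPM in NC, 17.7, 19.6 and 17.6 CPM in HG, and 8.24, 6.65 and 7.49 CPM in HG-SIG. Its HG libraries were thus 3.18-fold above NC and 2.45-fold above HG-SIG by the fitted means, with no overlap. Tmem38b (chromosome 4, 53826045 to 53862019), which encodes the TRIC-B cation channel of the endoplasmic reticulum, measured 170, 203 and 186 CPM in NC, 403, 481 and 413 CPM in HG and 140, 164 and 165 CPM in HG-SIG. Med22 (chromosome 2, 26905262 to 26910677), a subunit of the Mediator complex, measured 79.9, 92 and 81.5 CPM in NC, 169, 180 and 175 CPM in HG and 81.7, 79.1 and 83.8 CPM in HG-SIG. The NC and HG-SIG libraries of Med22 interleaved, with a log2 fold change between them of -0.05 and an interval of 2 SE from -0.15 to 0.06.

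Cldn11, a claudin of tight junctions, measured 59.3, 64.6 and 56.1 CPM in NC, 132, 158 and 126 CPM in HG and 35.5, 40.2 and 37.8 CPM in HG-SIG, so HG-SIG lay below NC as well as below HG. Jam2, a junctional adhesion molecule, was higher in HG by 0.96 against NC and 1.07 against HG-SIG on the log2 scale. Pairs of values given with a gene from here on are the log2 fold changes of HG against NC and of HG against HG-SIG, in that order. Chst1, a sulfotransferase that modifies keratan sulfate, was higher (1.23 and 1.38). The others were Fam13c (1.07 and 1.14), the fibrillar collagen gene Col27a1 (0.91 and 1.02), the kinase gene Stk38l of the NDR family (0.96 and 0.89), Slc5a3, Ranbp3l and Rarb (1.38 and 1.15), a receptor for retinoic acid. Rarb shares 34.1% of its exonic length with Top2b, and since no strand setting is given, reads of the pair cannot be told apart.

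**Figure D2:**
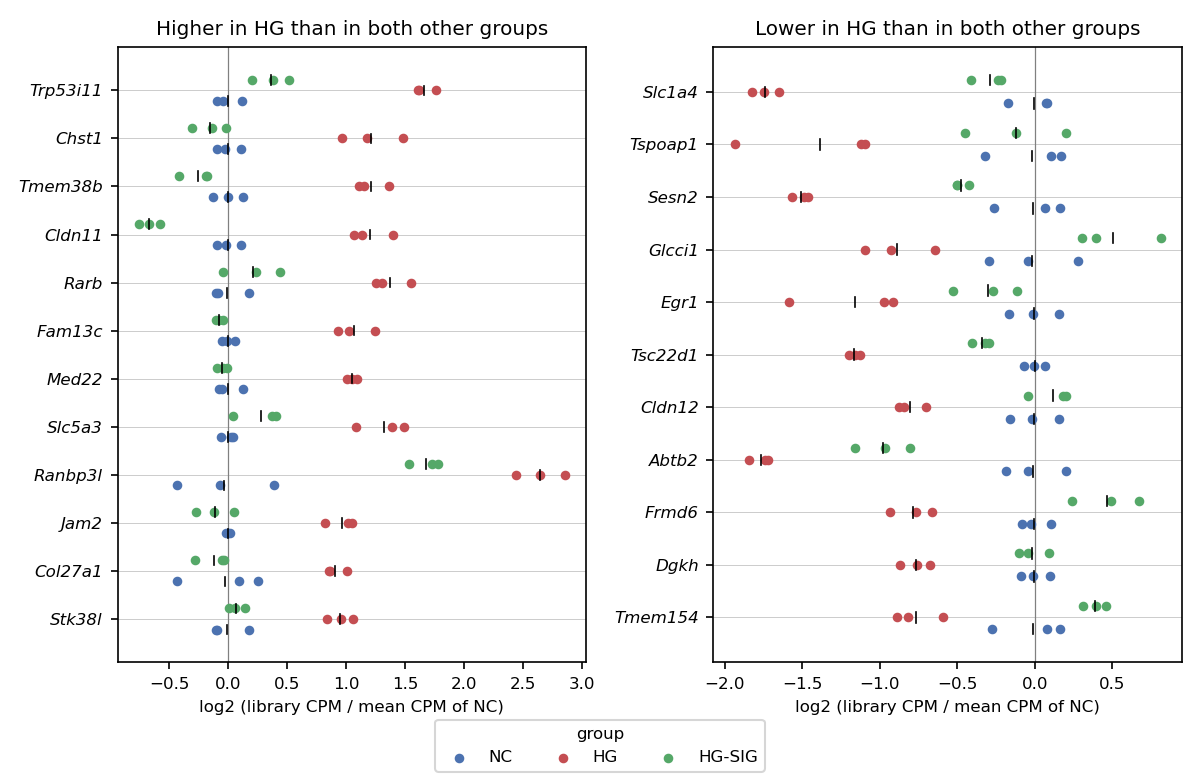
Level of each library relative to the mean of NC, as the log2 ratio of CPM, for members higher (left) and lower (right) in HG that were among the widest separated from both other groups (points: libraries, 3 a group; bars: mean of the log2 ratios). All HG points (red) lie beyond the NC (blue) and HG-SIG (green) points of the same gene, as the rule requires, and HG-SIG lies above NC at Ranbp3l and below it at Cldn11 and Abtb2.

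The lower members with the widest separation began with an amino acid transporter. Slc1a4 (ENSMUSG00000020142, chromosome 11, 20302180 to 20332713), which encodes the neutral amino acid transporter ASCT1, measured 11.2, 9.41 and 11.2 CPM in NC, 2.99, 3.37 and 3.17 CPM in HG and 7.98, 8.99 and 9.1 CPM in HG-SIG. Sesn2, a sestrin that restrains mTORC1 when leucine is short, measured 14.9, 11.1 and 13.9 CPM in NC, 4.49, 4.75 and 4.84 CPM in HG and 9.91, 9.41 and 9.43 CPM in HG-SIG. In both genes the HG libraries were tightly grouped, and the HG-SIG libraries lay below NC without reaching HG. Another sestrin gene, Sesn1, was a member in the opposite direction, at 42.8, 46.5 and 38.3 CPM in NC, 84.4, 102 and 88.6 CPM in HG and 53.3, 57.8 and 54 CPM in HG-SIG.

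Egr1, the immediate-early transcription factor, measured 51.9, 58.3 and 46.6 CPM in NC, 26.7, 27.7 and 17.4 CPM in HG and 48.3, 43.4 and 36.3 CPM in HG-SIG. HG replicate 3 was the lowest Egr1 library. Tspoap1 measured 3.59, 2.04 and 3.65 CPM in HG, with replicate 2 the lowest, against 5.72 CPM or more in the other 6 libraries. Tsc22d1, a leucine zipper gene induced by TGF-beta, was lower in HG (-1.16 and -0.82). The claudin gene Cldn12 (-0.81 and -0.92) moved opposite to Cldn11. Abtb2 (-1.77 and -0.80), Frmd6 (-0.79 and -1.26), the diacylglycerol kinase gene Dgkh (-0.76 and -0.75), Tmem154 (-0.75 and -1.15) and Glcci1 (-0.85 and -1.39) were also among them. Glcci1 shares 69.8% of its exonic length with Gm45062, so its reads may belong to either.

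Osmolyte genes were among the members, all of them higher in HG. Of 16 genes listed for NFAT5 and the hyperosmotic response 15 were tested, and 4 (26.7%, beside 7.66% of all genes tested) were members: Slc5a3, Slc6a12, Akr1b3 and Hspa1b. In the contrast 8 of the 15 were called higher and 2 lower, beside 18.2% and 16.2% of all genes tested. The list's median contrast was 0.29 on the log2 scale, beside -0.004 over all genes tested, but 0.13 with limma-voom and 0.04 on log2(TPM + 1). Slc5a3 (ENSMUSG00000089774), the sodium and myo-inositol cotransporter, measured 142, 152 and 150 CPM in NC, 314, 417 and 389 CPM in HG and 152, 192 and 197 CPM in HG-SIG. Slc6a12, the betaine transporter, measured 169, 194 and 161 CPM in NC, 335, 420 and 359 CPM in HG and 232, 281 and 279 CPM in HG-SIG. Akr1b3, aldose reductase, which turns glucose into the osmolyte sorbitol, measured 301, 328 and 305 CPM in NC, 421, 477 and 387 CPM in HG and 324, 353 and 326 CPM in HG-SIG. In each of the 3 the HG-SIG mean lay between the NC and HG means, and it was called above NC for Slc5a3 (adjusted p = 0.031 in edgeR's test) and Slc6a12 (adjusted p = 1.3e-04) but not for Akr1b3 (interval -0.03 to 0.23).

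Hspa1b, an inducible HSP70 gene with a near-identical neighbour, measured 5.74, 7.35 and 6.62 CPM in NC, 13, 19.7 and 14.6 CPM in HG and 8.62, 10.3 and 9.99 CPM in HG-SIG, and reads of the neighbouring copy could be counted to it. Nfat5 itself did not pass the test of the contrast (log2 fold change 0.10 against NC and 0.11 against HG-SIG, adjusted p = 0.14 in edgeR's test), and neither did the taurine transporter gene Slc6a6 (0.05 and 0.16, adjusted p = 0.10 in edgeR's test). The glutamine transporter gene Slc38a2 (0.30 and -0.04) was not a member.

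Slc5a3 and the mitochondrial ribosomal protein gene Mrps6 start within the same stretch of chromosome 16. In GRCm38 Mrps6 spans 92058270 to 92112227 and Slc5a3 92058322 to 92087473, both on the + strand. Mrps6 measured 75.3, 88.6 and 74.1 CPM in NC, 155, 173 and 139 CPM in HG and 82.3, 89.9 and 83.8 CPM in HG-SIG. It was the widest-separated of the 4 members among 30 tested mitochondrial ribosomal protein genes, and the other 3 (Mrpl19, Mrps27 and Mrps30) were higher than NC by 0.09 to 0.16 on the log2 scale. Members, all higher, were 13.3% of that list, beside 7.66% of all genes tested. Without HG replicate 3 the list had 8 members, and on log2(TPM + 1) it had 2. How RSEM shared reads between the overlapping transcripts of Mrps6 and Slc5a3 was not tested. Chromosome 16 held the highest share of members, 19.3% of 379 tested genes, with 11.4% to 15.8% on the other autosomes.

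Most sterol synthesis genes were higher in HG. Of 24 tested genes of cholesterol synthesis and SREBP2 targets, 21 were called higher in HG, beside 18.2% of all genes tested, and 0 lower. Members were 16 of them (66.7%), all higher, beside 7.66% of all genes tested. Their median contrast was 0.38 over the 24 tested genes. All 16 were called in both pairwise comparisons, by 0.17 to 0.66 against NC and 0.17 to 0.84 against HG-SIG. Members named here run along the pathway: Hmgcs1, the HMG-CoA synthase, Pmvk, Mvd and Idi1 of the mevalonate branch, Fdft1 and Sqle, which make squalene and its epoxide, Lss, Cyp51, Nsdhl, Hsd17b7, Sc5d and Dhcr7 of the sterol branch, then Insig1 and Stard4, which serve feedback and transport of sterol.

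Mvd, the mevalonate diphosphate decarboxylase, measured 31, 32.7 and 29 CPM in NC, 49.3, 52.8 and 43.9 CPM in HG and 27.6, 30.2 and 28.3 CPM in HG-SIG. Insig1, the sterol-sensing anchor that holds SREBP in the endoplasmic reticulum, measured 67.1, 68.5 and 64.1 CPM in NC, 89.6, 91.9 and 89.3 CPM in HG and 49, 51.9 and 50.9 CPM in HG-SIG. Dhcr7, the sterol reductase that makes cholesterol from its dehydro precursor, was higher in HG by 0.59 against NC and 0.19 against HG-SIG. The HG-SIG level differed between genes of the pathway: near NC for Mvd (interval of the log2 fold change -0.24 to 0.04), below NC for Insig1 and above NC for Dhcr7. Of the 16, HG-SIG against NC was called on the far side of NC at 8, on the HG side at 3 and not at 5. Genes of the list that were not members included Srebf2, the sterol-responsive factor itself (0.05 and 0.32), Msmo1 (-0.04 and 0.71), Fdps (0.28 and 0.77) and Acat2 (0.84 and 0.22).

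The promoters of these genes are shown because the members moved together. RefSeq promoter sequences of GRCm38.p6 (250 bases before to 50 after the gene start) matched 11 of the 16 members, and all 11 held the letters CCAAT, read on either strand, which is the core bound by NF-Y. Of the 17 matched genes among all 24 tested in the list 94.1% held them, as did 43.5% of all matched tested genes and 37.4% of all 32851 promoters. The letters were not particular to this list: 60% of matched members of the DNA replication list and 66.7% of those of the ATF4 list held them. Other motifs were searched too. TCACNCCAC, letters of a sterol element, was in 1 of the 11, beside 1.39% of all matched tested genes. TGATGNAAT, letters of an ATF4 site, was in 0 of 12 matched members of the ATF4 list, beside 0.53% of all matched tested genes. The first base of each match below lies 12 to 216 bases before the gene start, the sequence reads along the gene's strand, and capitals mark CCAAT or its reverse complement.
Hmgcs1 (chr13:119690286-119690330, + strand): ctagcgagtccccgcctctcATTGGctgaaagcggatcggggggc
Mvd (chr8:122443425-122443469, - strand): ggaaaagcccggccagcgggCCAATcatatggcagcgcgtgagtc
Cyp51 (chr5:4104702-4104746, - strand): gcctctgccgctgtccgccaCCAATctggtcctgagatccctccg
Hsd17b7 (chr1:169969206-169969237, - strand): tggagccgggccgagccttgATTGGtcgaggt
Insig1 (chr5:28071176-28071220, + strand): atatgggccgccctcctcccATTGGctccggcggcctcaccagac
A match of letters is a description of the sequence and says nothing of what bound there in these cells.

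Fatty acid genes were higher in HG too. Of 13 tested genes of fatty acid synthesis and desaturation 10 were called higher, beside 18.2% of all genes tested, and 0 lower. Members were 8 (61.5%, beside 7.66% of all genes tested): Fasn, Scd1, Scd2, Elovl1, Elovl6, Fads1, Fads2 and Srebf1. The median contrast was 0.20 over the 13. On log2(TPM + 1) 5 were members and the median was 0.12. Scd2, a stearoyl-CoA desaturase, measured 1164, 1086 and 1101 CPM in NC, 1462, 1382 and 1566 CPM in HG and 1075, 1055 and 1108 CPM in HG-SIG. Fasn, the fatty acid synthase, measured 329, 359 and 355 CPM in NC, 469, 471 and 478 CPM in HG and 402, 413 and 399 CPM in HG-SIG. For Scd2 the NC and HG-SIG libraries interleaved (log2 fold change of HG-SIG against NC -0.05, interval -0.14 to 0.04), while for Fasn HG-SIG stood between the other groups. The desaturases Fads1 and Fads2 were nearer to NC than to HG-SIG, higher in HG by 0.12 and 0.22 against NC but by 0.93 and 0.77 against HG-SIG. The first enzymes of the pathway, Acly (0.26 and -0.04) and Acaca (0.19 and -0.02), were not members.

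Lipid handling and lysosomal genes showed single members of larger size. Lipa, the acid lipase that frees cholesterol from stored esters in the lysosome, measured 301, 309 and 317 CPM in NC, 502, 519 and 511 CPM in HG and 363, 365 and 380 CPM in HG-SIG. It was 1 of 6 members, all higher, among 35 tested lysosomal genes, a share of 17.1% beside 7.66% of all genes tested. The others included the legumain gene Lgmn (0.37 against NC and 0.66 against HG-SIG), Tfeb (0.27 and 0.74), the master regulator of lysosomal genes, Lamp1 and Psap. Scaling by library totals alone gave 6 higher and 3 lower members in that list. Of 21 genes for LXR and cholesterol efflux, Abcg1, which exports cholesterol to lipoproteins (0.33 and 0.42), and the ubiquitin ligase gene Mylip (0.28 and 0.83), were members beside Lipa, and the LXR-beta gene Nr1h2 was a lower one (-0.15 and -0.19). Members were 19.0% of that list, beside 13.4% of all genes tested.

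**Figure D3:**
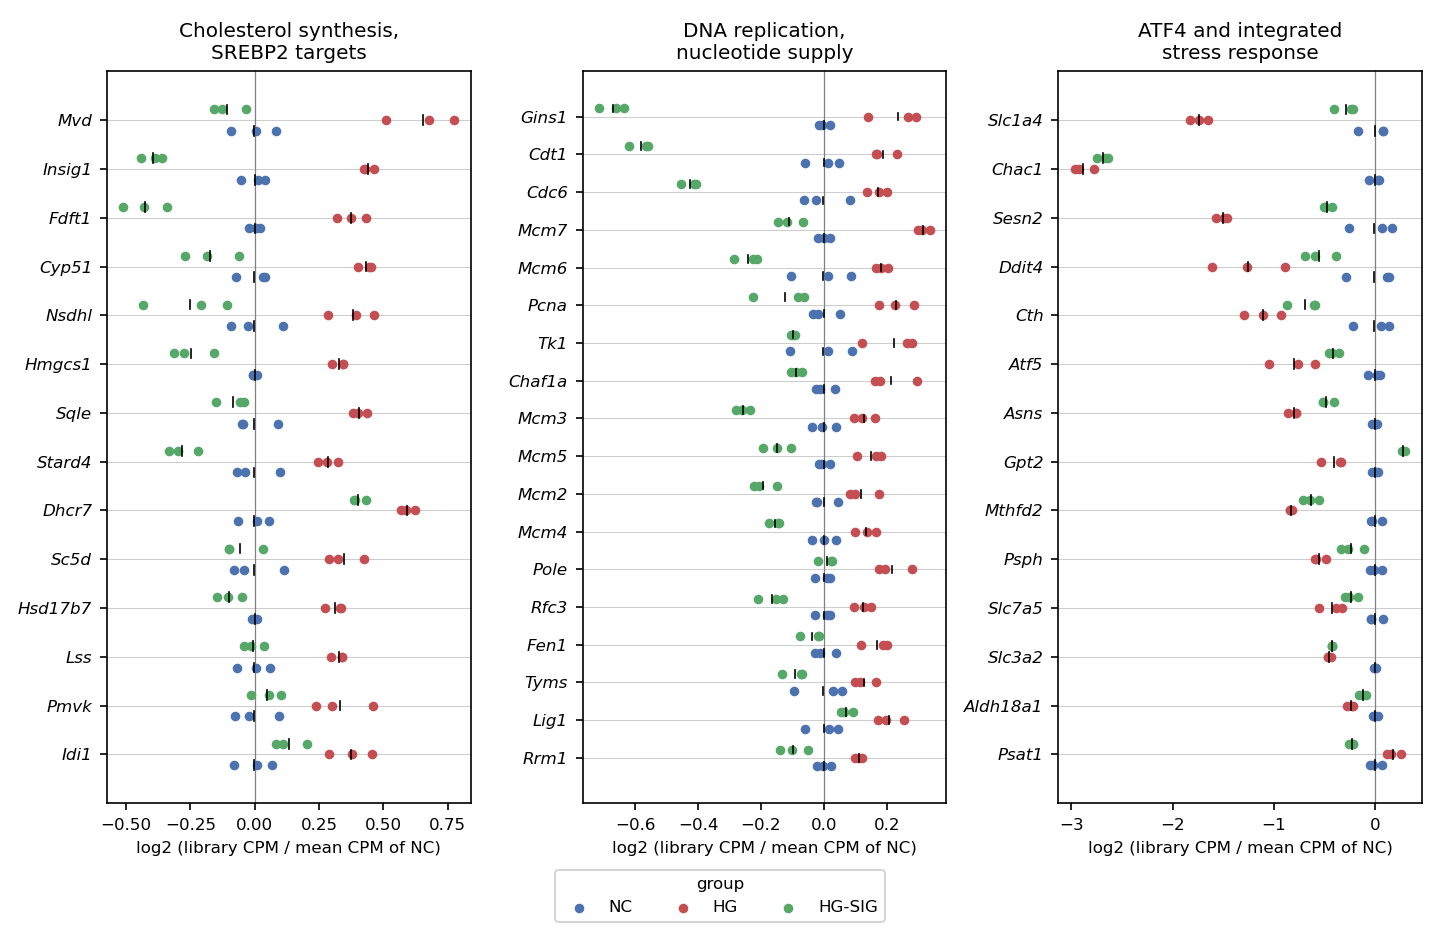
Genes from among the members of 3 lists (left: cholesterol synthesis, centre: DNA replication, right: ATF4 and the integrated stress response) by library, as the log2 ratio of CPM to the mean of NC, with a different scale in each panel (points: libraries, 3 a group; bars: mean of the log2 ratios). HG (red) is to the right of both other groups at all cholesterol and replication members shown and to the left at 13 of 14 ATF4 members, while HG-SIG (green) was called below NC at 12 of 18 replication members and on the HG side of NC at 12 of 13 lower ATF4 members.

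DNA replication genes were higher members at 72% of those tested, beside 7.66% of all genes tested. Of 25 genes of DNA replication and nucleotide supply 21 were called higher, beside 18.2% of all genes tested, and 0 lower. The median contrast was 0.21 over the 25 (0.12 on log2(TPM + 1)). Members were 18, all called in both pairwise comparisons. They were higher by 0.11 to 0.32 against NC and by 0.14 to 0.91 against HG-SIG, so the steps from NC were small. All 6 subunits of the MCM helicase (Mcm2 to Mcm7) were members, as were the loading factors Cdc6 and Cdt1, the sliding clamp Pcna, Gins1, Rfc3, Pole, Fen1, Lig1, Chaf1a, Rrm1, Tyms and Tk1. Mcm7 measured 221, 224 and 218 CPM in NC, 279, 274 and 272 CPM in HG and 211, 203 and 200 CPM in HG-SIG. Cdt1 measured 88.3, 92.9 and 95.3 CPM in NC, 104, 108 and 103 CPM in HG and 62.6, 60.1 and 62.3 CPM in HG-SIG. HG-SIG against NC was called on the far side of NC at 12 of the 18 and on the HG side at 0, which was its pattern for Cdt1 (-0.58) and Mcm7 (-0.11).

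RefSeq promoters matched 15 of the 18 replication members, and 9 of the 15 (60%) held TTTNNCGC on either strand, letters of an E2F site. The same letters were in 10.2% of matched tested genes and 5.17% of all promoters. The 5 shown are in the same format, with capitals for the match or its reverse complement and its first base 10 to 165 bases before the gene start.
Mcm5 (chr8:75109340-75109387, + strand): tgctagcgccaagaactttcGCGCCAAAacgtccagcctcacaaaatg
Mcm6 (chr1:128359725-128359772, - strand): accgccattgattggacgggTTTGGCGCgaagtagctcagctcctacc
Mcm7 (chr5:138172021-138172068, - strand): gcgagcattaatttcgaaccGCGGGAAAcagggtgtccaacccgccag
Cdc6 (chr11:98907993-98908040, + strand): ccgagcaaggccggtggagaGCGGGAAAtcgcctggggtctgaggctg
Rfc3 (chr5:151651209-151651238, - strand): ccggaagtgacgtcgcacgcTTTCGCGCtc
The list was assembled from replication genes, many of which are known E2F targets, so the motif share describes the list and not the response. Over all matched members higher in HG, CCAAT was in 48.2% and TTTNNCGC in 14.5%. Over those lower in HG the shares were 45.8% and 8.12%.

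Mitosis and ribosome genes followed with smaller differences. The median difference over the mitosis list was 0.20 against NC and 0.01 against HG-SIG. It was 0.07 and 0.24 over ribosome biogenesis genes and 0.04 and 0.15 over spliceosome genes. Members, all higher, were 32%, 37.5% and 27.8% of these lists, beside 7.66% of all genes tested. Genes called higher were 60%, 75% and 47.2% of them, beside 18.2% of all genes tested. Of 25 mitosis and spindle genes 15 were called higher and 8 were members (Cdk1, Ccnb1, Ccnb2, Aurka, Aurkb, Bub1b, Cdc20 and Kif20a), by 0.15 to 0.34 against NC and 0.09 to 0.28 against HG-SIG. This count rested on the scaling: with library totals alone, and on log2(TPM + 1), 0 of them were members. Of 32 genes of nucleolar ribosome biogenesis 24 were called higher and 12 were members, among them the pseudouridine synthase Dkc1 (0.26 and 0.40), Nolc1 (0.20 and 0.39) and nucleolin, Ncl (0.10 and 0.21). Of 36 spliceosome genes 17 were called higher and 10 were members, led by the SR proteins Srsf6 (0.33 and 0.19) and Srsf7 (0.31 and 0.24) and by Tra2b (0.27 and 0.27). With library totals alone the members were 9 of the ribosome biogenesis genes and 4 of the spliceosome genes. Over the cytosolic ribosomal protein genes the median difference was -0.04 against NC and 0.27 against HG-SIG. Of these 36 genes 10 (27.8%, beside 18.2% of all genes tested) were called higher and 1 was a member, Rpl12 (2.78%, below the 7.66% of all genes tested). Without HG replicate 3, 30 of them were called higher and 3 were members; without HG replicates 1 and 2 in turn 4 and 5 were called, and with the replicate block 26. Of 34 tested nuclear genes of the respiratory chain 2 were members (5.88%, also below 7.66%), Ndufb3 (0.08 and 0.30) and Sdha (0.13 and 0.09), but 17 were when HG replicate 3 was left out. Both pairwise comparisons were called at 0 of these 2, and not at Rpl12.

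Many genes of the ATF4 response were lower in HG. Of 29 tested genes of ATF4 and the integrated stress response 18 were called lower, beside 16.2% of all genes tested, and 1 higher. Lower members were 13, beside 5.75% of all genes tested, and the median contrast was -0.30 over the 29. The list's median difference was -0.55 against NC and -0.01 against HG-SIG. Chac1, which degrades glutathione, measured 11.3, 10.5 and 11.2 CPM in NC, 1.6, 1.45 and 1.41 CPM in HG and 1.77, 1.73 and 1.64 CPM in HG-SIG. Asns, asparagine synthetase, measured 256, 258 and 248 CPM in NC, 148, 148 and 140 CPM in HG and 178, 191 and 177 CPM in HG-SIG. Gpt2, which makes alanine, measured 24.6, 25.3 and 25.7 CPM in NC, 20, 17.4 and 19.7 CPM in HG and 30.2, 31 and 30.4 CPM in HG-SIG.

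The 3 genes show how unlike the members of this list were. For Chac1 the HG libraries were the lowest but the difference from HG-SIG was not called (-0.20, adjusted p = 0.34 in edgeR's test). The HG-SIG mean lay between NC and HG for Asns and beyond NC for Gpt2. HG-SIG against NC was called at all 13, on the HG side of NC at 12 and on the far side at Gpt2 alone. The others were Sesn2, Ddit4, Cth, Atf5, Psph, the mitochondrial folate enzyme gene Mthfd2 (-0.83 and -0.20), Aldh18a1, Slc1a4, and Slc7a5 (-0.42 and -0.18) and Slc3a2 (-0.46 and -0.03), whose products pair as an amino acid exchanger. Psat1, of serine synthesis, was a member in the opposite direction (0.17 and 0.40). Atf4 itself (-0.51 and 0.42) was not a member, and Trib3 (-2.66 and -0.19) was called in the contrast with an overlap of libraries.

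Members among the inflammatory genes were mostly lower in HG. Tnf, reported whatever its result, measured 200, 191 and 190 CPM in NC, 42.5, 42.2 and 38.1 CPM in HG and 31.4, 36.7 and 33.6 CPM in HG-SIG, and so was no member. Of 31 NF-kB targets 21 were called lower in the contrast, beside 16.2% of all genes tested. The list's median difference was -0.99 against NC but 0.01 against HG-SIG. Members numbered 6, all lower: Nfkb2, Nfkbie, Tnfaip2, Birc2, Icam1 and Cd40. That was 19.4% of the list, beside 5.75% of all genes tested. Nfkbie, the inhibitor IkB-epsilon, measured 23, 22.7 and 23.6 CPM in NC, 6.27, 6.47 and 6.25 CPM in HG and 9.56, 9.28 and 10.8 CPM in HG-SIG. Nfkb2, which encodes p100, measured 77.1, 79.1 and 77.6 CPM in NC, 33.3, 32.1 and 30 CPM in HG and 45.2, 43.2 and 42 CPM in HG-SIG. The HG libraries were lowest for both, with HG-SIG between. With library totals alone, and on log2(TPM + 1), 12 of the 31 were members.

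Other immune lists held lower members as well. Of 14 tested M1-type markers 3 were lower members, the costimulatory genes Cd40 (-3.12 and -0.76) and Cd80 (-1.76 and -1.05) and Irf1 (-0.19 and -0.37), and Fcgr1 was a higher one, so that 28.6% of the list were members beside 13.4% of all genes tested. Cd40 had 7 to 9 counts in the HG libraries, and its difference from HG-SIG was not called (adjusted p = 0.091 in edgeR's test). Cd80 had 14 to 19 counts in the HG libraries. Among 13 inflammasome genes 3 were lower members, Casp4 (-1.36 and -0.28), Aim2 (-0.16 and -0.23) and Nlrc4 (-0.33 and -0.85), which was 23.1% of that list. Among 40 interferon-stimulated genes 3 were lower members, Ifih1 (-1.11 and -0.23), Ifit2 (-0.46 and -0.69) and Irf1, and this 7.5% was near the 5.75% of all genes tested. The median difference over the M1-type list was -1.75 against NC and 0.40 against HG-SIG. Over the interferon-stimulated list it was -0.78 and 0.39. Toll-like receptors divided: Tlr4 (0.38 and 0.51), Tlr7 (0.32 and 1.19) and Tlr8 (0.56 and 1.28) were higher in HG, and Tlr3 (-0.29 and -0.72) and Tlr6 (-0.19 and -0.37) lower, and without HG replicate 1 the lower members of the Toll-like receptor and MAPK list were 4 in place of 2. With all libraries, members of both directions were 16.7% of that list, near the 13.4% of all genes tested. Of 11 tested M2-type markers 0 were members, although 7 (63.6%, beside 34.4% of all genes tested) were called in the contrast.

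Macrophage identity genes gave 4 higher members and 1 lower among 22 tested, which was 22.7% beside 13.4% of all genes tested. The list's median difference was -0.12 against NC and 0.72 against HG-SIG, and -0.87 for HG-SIG against NC. Csf1r, the receptor for the growth factor M-CSF, measured 1934, 2010.2 and 2025 CPM in NC, 2342, 2360.1 and 2441 CPM in HG and 1372, 1356 and 1395 CPM in HG-SIG. The high libraries were HG and the low ones HG-SIG. Trem2 (0.27 and 0.72) and Fcgr1 (0.42 and 0.29) were also higher members and Fcgr3 the lower one (-0.23 and -0.47). Csf1r shares 15.1% of its exonic length with Hmgxb3.

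Other lists held a few members each. Members were 22.2% of the clock genes and 23.1% of the NRF2 genes, beside 13.4% of all genes tested. The 12.1% of immediate-early genes, with members in both directions, was not above that share. The clock and unfolded protein response members were all higher, for which the share of all genes tested was 7.66%. The 9.09% of unfolded protein response genes was near it. Among 18 tested clock genes Dbp (0.78 against NC and 0.88 against HG-SIG), Tef (0.36 and 0.36), Nr1d2 (0.39 and 0.17) and Per2 (0.19 and 0.82) were higher members. Among 33 immediate-early genes Egr1, the ERK phosphatase gene Dusp6 (-0.68 and -0.69) and the ERK inhibitor gene Spry2 (-0.48 and -0.46) were lower members and Klf2 (0.64 and 0.70) a higher one, and HG-SIG against NC was called at 0 of these 4. The lower members of that list were 6 with library totals alone and 7 on log2(TPM + 1). Of 26 NRF2 antioxidant genes Gclc, Gpx1, Pgd and Tkt were higher and Srxn1 and Txnrd1 lower, and the higher members were 9 without HG replicate 3 and 7 without NC replicate 2. Of 22 genes of the unfolded protein response 19 were called higher, beside 18.2% of all genes tested, but 2 were members, Hspa5 (0.12 and 0.84) and Xbp1 (0.31 and 1.03). The list's median difference was -0.0009 against NC and 0.51 against HG-SIG. Without HG replicate 2 that list had 5 members.

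The share of members among glycolysis genes was near that of all genes tested. Of 24 genes of glycolysis and glucose transport 10 were called higher and 2 lower, beside 18.2% and 16.2% of all genes tested. Higher members were 2 (8.33%, beside 7.66% of all genes tested), Slc2a6 (0.14 against NC and 0.41 against HG-SIG) and the lactate transporter gene Slc16a1 (0.08 and 0.28). Both pairwise comparisons were called at 0 of these 2. Txnip, the thioredoxin-interacting protein gene that responds to glucose through MondoA, measured 243, 248 and 294 CPM in NC, 319, 321 and 378 CPM in HG and 328, 345 and 397 CPM in HG-SIG and did not pass the test of the contrast (adjusted p = 0.14 in edgeR's test). Its HG and HG-SIG libraries interleaved, both above NC. Of 22 genes of insulin, PI3K, AKT and FOXO 0 were members, beside 13.4% of all genes tested. In the contrast 9 (40.9%) were called lower, beside 16.2% of all genes tested. Lower members of that list were 6 without HG replicate 3, 3 with library totals alone and 2 on log2(TPM + 1). Of 7 tested genes of the dipeptidyl peptidase family and incretin receptors 1 (14.3%, near the 13.4% of all genes tested in both directions) was a member, Dpp3 (-0.12 and -0.18), whose highest HG and lowest NC library were both at 59.7 CPM. It was no longer a member with RLE, upper-quartile or library-total scaling, with DESeq2, on log2(TPM + 1), or without HG replicate 1, HG-SIG replicate 2 or HG-SIG replicate 3.

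**Figure D4:**
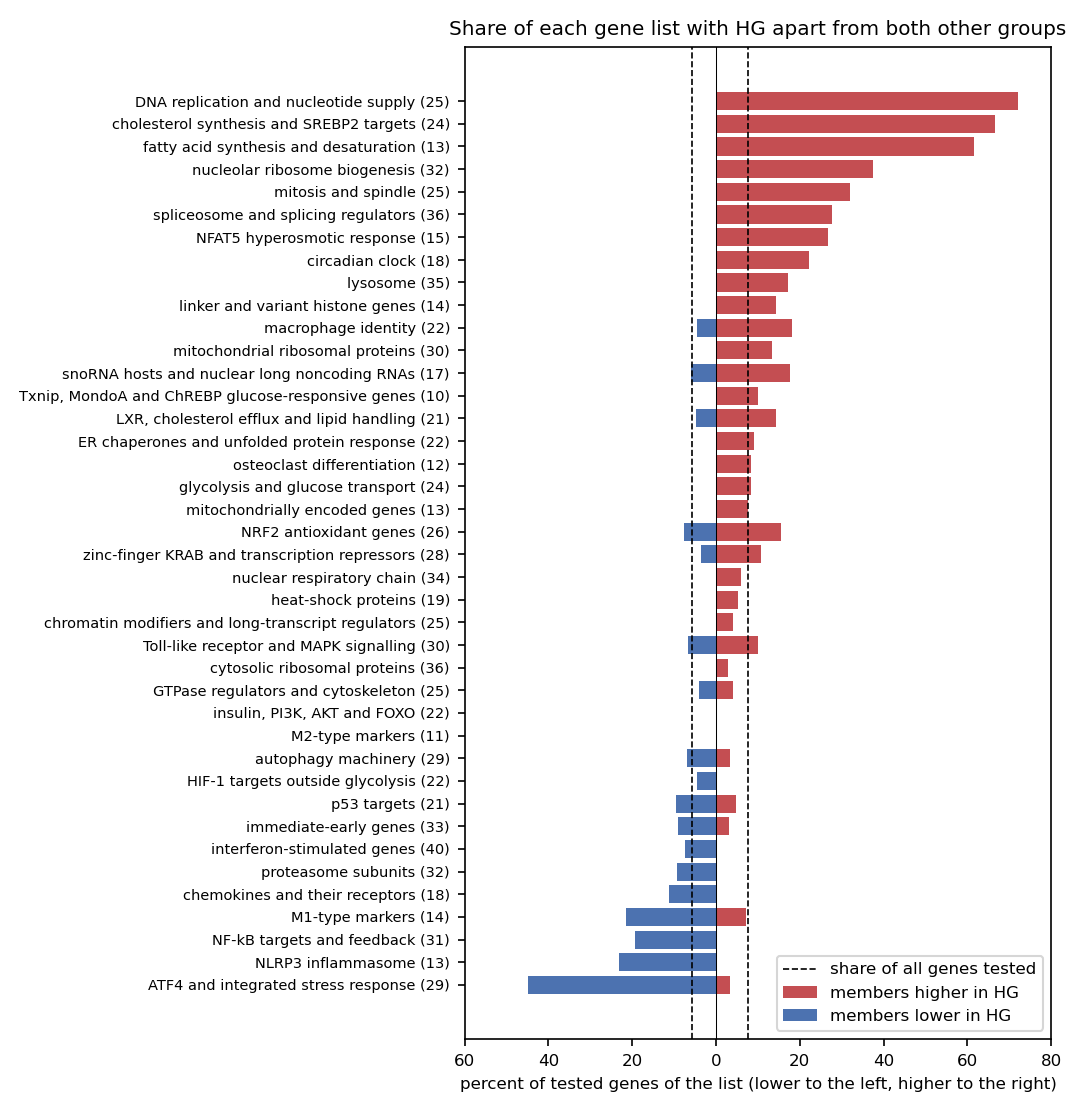
Share of the tested genes of each list that were members, higher in HG to the right (red) and lower to the left (blue), with the number of tested genes in brackets, for lists with 10 or more tested genes. DNA replication (18 of 25), cholesterol synthesis (16 of 24) and fatty acid synthesis (8 of 13) extend farthest to the right, ATF4 (13 of 29) farthest to the left, and dashed lines mark the 7.66% and 5.75% of all genes tested.

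The position of HG-SIG relative to NC was free to vary among the members, within a limit: the rule of no overlap favours genes at which HG-SIG and NC lie close. HG-SIG against NC was called at 884 members (49.6%), beside 58.6% of all genes tested, where HG-SIG was the higher at 29.9% and the lower at 28.7%. At 641 (35.9%) HG-SIG lay on the far side of NC from HG, and at 243 (13.6%) on the HG side, between the others. At 900 (50.4%) the difference was not called, with a median half-width of 0.10 for the interval of 2 SE on the log2 scale. Without HG replicate 3, which raised the members to 2588, HG-SIG against NC was called at 1443. An uncalled difference does not show that sitagliptin brought a gene to the NC level. Tef (interval -0.10 to 0.10), Tra2b (-0.08 to 0.08) and Srxn1 (-0.08 to 0.09) had some of the narrower intervals around 0.

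Some members lay close to NC and far from HG-SIG. Olfml3, an extracellular glycoprotein gene, measured 12.9, 12.8 and 14.1 CPM in NC, 17.7, 14.5 and 17.4 CPM in HG and 1.89, 1.57 and 2.12 CPM in HG-SIG. Apobec1, a cytidine deaminase gene, measured 380, 343 and 360 CPM in NC, 391, 385 and 396 CPM in HG and 88.2, 79.4 and 85.5 CPM in HG-SIG. Both were far below in HG-SIG, and their HG libraries lay only slightly above NC. For Apobec1 the difference of HG from NC was not called (log2 fold change 0.11, adjusted p = 0.081 in edgeR's test). Ranbp3l measured 10.2, 18 and 13.1 CPM in NC, 74.7, 99.3 and 85.9 CPM in HG and 39.9, 47.1 and 45.5 CPM in HG-SIG, so its HG-SIG libraries stood between the other groups. Zrsr1 (-0.57 and -2.19) and Hip1r (-0.42 and -1.43) were highest in HG-SIG. Among all genes tested called in both pairwise comparisons, HG lay beyond both groups at 1231 and between them at 1300.

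**Figure D5:**
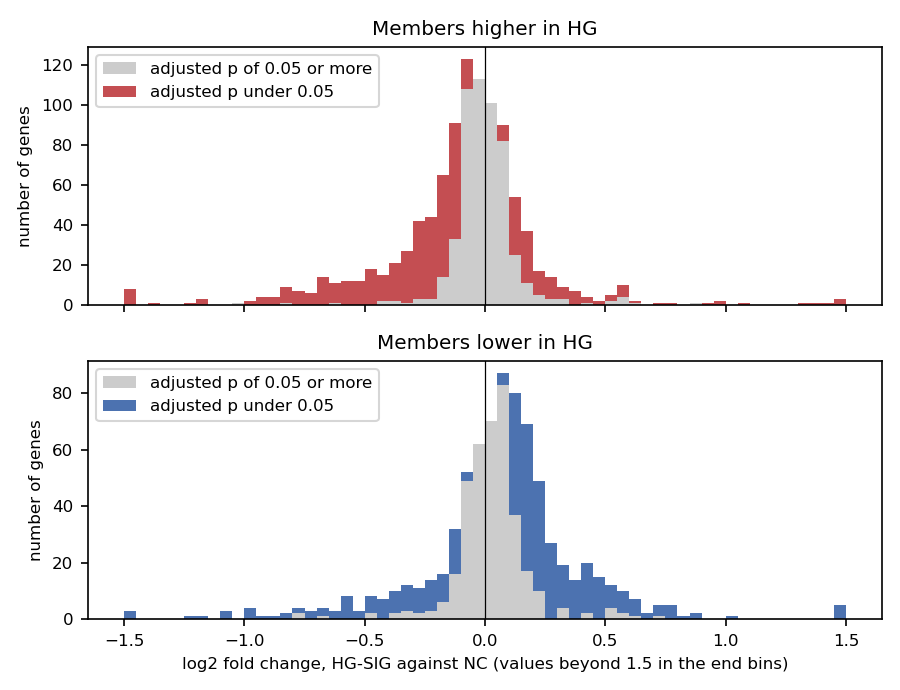
Number of members by log2 fold change of HG-SIG against NC, in bins of equal width with values beyond 1.5 placed in the end bins (top: 1019 members higher in HG, bottom: 765 lower), with genes called at an adjusted p under 0.05 in colour. In the top panel 372 called genes lie to the left of 0, away from HG, and 126 to the right, and in the bottom panel 269 lie to the right, away from HG, and 117 to the left.

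Members differed from the rest of the table in expression, length, GC content and biotype. Expression is not separate from the rule, since calls and overlap depend on the same counts, and the other properties were compared without matching for it. The share of higher members increased with expression, from 2.48% in the lowest of 5 equal bins of mean log2 CPM to 14.9% in the highest, while lower members peaked at 7.74% in the middle bin. The part of counting depth in this was not tested. Median exonic length was 4432 bp for higher and 5186 bp for lower members beside 4322 bp for all tested, and median GC content was 50.5% and 47.7% beside 49.3%. Lower members spanned a median of 31.3 kb of genome and higher ones 20.8 kb, beside 21.5 kb. Protein-coding genes made up 92.9% of higher and 93.2% of lower members and 84.5% of genes tested. Of the 13 tested mitochondrial genes 1 was a higher member, mt-Nd1 (7.69%, near the 7.66% of all genes tested).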

How the data were processed

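The authors deposited a table of whole-number gene counts with a column for each library. The submitters' processing notes name Bowtie2 2.3.5, RSEM and mm10. No annotation release or strand setting is named in the sources used here. RNA was extracted with Trizol and selected with oligo(dT), per the labels' protocols. Of 20627 features, 18591 were found in GENCODE M21, which supplied coordinates, length and GC, and 1996 were unannotated loci holding 5.85% to 6.21% of counts; they stayed in the tests.

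Counts were filtered with filterByExpr by group (13311 genes), scaled with TMM and fitted in 1 model with a mean per group (edgeR 4.0.16, R 4.3.3). HG minus the average of NC and HG-SIG, and the 3 pairwise differences, were tested with the two-sided quasi-likelihood F-test and adjusted by Benjamini-Hochberg over all genes tested. Every adjusted p comes from this fit. Levels are TMM-scaled CPM. Pairs of values after a gene are log2 fold changes of HG against NC, then against HG-SIG. The fit was tested on simulated data in which most genes did not change, so that run does not bear on the choice of scaling.

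Members and the 41 gene lists were chosen with earlier results of these data known. Named genes were the 12 widest-separated members in each direction with a mean log2 CPM of 2 or more, as many as 3 members of every list by contrast p, the 3 highest and 3 lowest in HG-SIG against NC, 2 just inside and 2 just outside the rule, and Txnip and Tnf. Other list genes were named after their values were seen. Lists are described by counts and medians, with no test. Counts cover all genes, but some members are not reported here by name.

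Alternatives were RLE and upper-quartile scaling, library totals alone, DESeq2 1.42.0, limma-voom and limma on log2(TPM + 1) (limma 3.58.1), other count filters, each library left out, and the replicate number as a block. Deviations from the group mean correlated at -0.003 to 0.099 between libraries with the same replicate number and at -0.077 to 0.041 between those with different numbers. The main fit did not pair libraries by number. With the number as a block 5425 genes were called in place of 4582, so a small shared part by number may remain in the spread.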

Additional observations from a re-analysis of the deposited data

How the results depend on the processing

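Of 137 named genes, 126 kept their direction and call of the contrast under all 18 alternatives, 10 lost the call under at least 1, and Txnip gained it under 3. None reversed. The number of members was 1182 when both pairwise comparisons had also to be called and 407 when the contrast had to exceed 0.5 on the log2 scale. Leaving out each library in turn gave 1754 to 2588 members, the highest without HG replicate 3, and 776 to 1443 members with HG-SIG against NC called, again highest without HG replicate 3. Without HG replicates 1 and 2 in turn the members were 1842 and 1754. The contrast was called at 3360 to 4839 genes over the same fits.

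Over all 18 alternatives, members numbered 14 to 19 of the 24 cholesterol genes, 13 to 20 of the 25 replication genes and, on the lower side, 12 to 16 of the 29 ATF4 genes.

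Scaling moved the balance of directions. With library totals alone 5067 genes were called, 29.1% of them higher, and there were 1617 members, 38.2% higher, of which 1184 were among the 1784. Limma on log2(TPM + 1) called 5271 genes, 22.1% higher, and gave 1518 members, 32.7% higher, of which 993 were shared. These settings put the median contrast of all genes at -0.07 and -0.08. The contrast of 3 members took the opposite sign on log2(TPM + 1). DESeq2 called 4043 genes and gave 1618 members. With the replicate block 5425 genes were called and 1827 were members, at 957 of which HG-SIG against NC was called. Depth limits the genes under a few CPM, where 3 counts equal 0.095 to 0.129 CPM, and such limits cover counting error only.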
